A study of Mus musculus with 2 samples.

Results

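The genes described here are 7 genes of the MHC class II pathway, Cd74, H2-Aa, H2-Ab1, H2-Eb1, H2-DMa, H2-DMb1 and Ciita, taken by symbol from the 32285 genes of the count tables of spatial transcriptomics (ST) of mouse liver. All 7 were found in both tables. They are described by their level in each section, their spread over spots, and their presence in the same spots as macrophage and dendritic cell transcripts. ST was performed with 10x Visium slides, where a tissue section is placed on barcoded capture spots and each captured RNA molecule is counted through its unique molecular identifier (UMI). The data hold 1 liver section of 1 mouse on a normal chow diet (NCD) and 1 liver section of 1 mouse on a high-fat diet (HFD, 60%), a diet used to model non-alcoholic fatty liver disease (NAFLD). Both mice were male C57BL/6J animals bought at 5 weeks of age, acclimated for 1 week and fed their diet for 14 weeks. Both then received water by mouth each day for 8 weeks, and livers were collected after hepatic perfusion, frozen and cut at 10 µm. The labels carry tags for hematopoietic stem cell and immune cell, whereas the hepatocyte markers Alb, Apoa1, Cyp2e1, Mup3 and Pck1 together gave 82801 and 75919 UMIs per 1000000 in the NCD and HFD sections, so hepatocyte transcripts were abundant in both.

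MHC class II molecules carry peptides from endocytosed proteins to the cell surface, where CD4+ T cells read them. H2-Aa and H2-Ab1 encode the α and β chains of I-A, and H2-Eb1 encodes the β chain of I-E, whose α chain C57BL/6 mice do not make. Cd74 encodes the invariant chain, which fills the groove of new class II molecules and guides them to endosomes. H2-DMa and H2-DMb1 encode the chains of H2-DM, which exchanges the last piece of the invariant chain for peptide, and Ciita encodes the coactivator that switches on the whole set. In liver, dendritic cells, B cells and macrophages are the known carriers, and other cells can gain class II under interferon gamma.

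Over tissue, NCD liver had 3692 spots, 29037988 UMIs and a median of 4187.5 UMIs per spot, and HFD liver had 3594 spots with 72118803 UMIs and a median of 18549. In NCD liver 840 spots over tissue (22.8%) had fewer than 1000 UMIs, against 4 spots (0.111%) in HFD liver. The spots off tissue held 19.1% of all UMIs on the NCD slide, with a median of 3383 UMIs per spot, and 2.93% on the HFD slide. With 1 section per diet, diet, animal, section and slide cannot be told apart, and no test between the groups was possible. All intervals below are exact 95% intervals and cover counting error only. A spot can hold several cells, so fewer cells of a type and less RNA per cell cannot be told apart. Values in UMIs per 1000000 (CPM) are the UMIs of a gene, pooled over spots, per 1000000 UMIs of those spots, and the differences are log2 ratios of CPM.

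All 7 genes had a higher level in HFD liver than in NCD liver. Their sum was 464 CPM (456 to 472, 13467 UMIs) in NCD liver and 856 CPM (849 to 862, 61700 UMIs) in HFD liver, a log2 ratio of 0.88 (0.86 to 0.91). None of the 7 reached a ratio of 2-fold, which 9.30% of the 10665 genes with at least 200 UMIs reached, and 7 of 7 reached 1.5-fold, which 23.9% of all genes reached. Both counts depended on the processing. As a mean of CPM per spot 3 of 7 reached 1.5-fold (Cd74, H2-Ab1 and H2-Eb1), after subtraction of the spots off tissue 3 of 7 (H2-Aa, H2-Ab1 and H2-Eb1), and at 3000 UMIs per spot 5 of 7. Cd74 and H2-Eb1 passed 2-fold without the richest 1% of spots and without B cell and plasma cell spots, and H2-Ab1 did so after the subtraction. The shares of all genes were computed for the main setting only, so whether genes in general moved in the same way is not known. HFD liver was higher for genes in general, with an interval of the log2 ratio above 0 for 55.2% of all genes and below 0 for 17.9%, and with a median log2 ratio of 0.23 over all genes tested, whereas the median of the 7 genes was 0.72. The members lay between percentiles 76.2 and 90.3 of all genes, in the upper part of the distribution. Markers of other cell types also differed between the sections, in both directions. Dendritic cell markers (Itgax, Xcr1 and Clec9a) were at 1.96 CPM (1.49 to 2.54) in NCD liver and 7.46 CPM (6.84 to 8.12) in HFD liver, and macrophage markers (Adgre1, Cd68, Spic and Clec4f) at 75.5 and 99.3 CPM. Itgax made up most of the dendritic difference, with 0.96 and 5.88 CPM, while Xcr1 was at 0.38 and 0.31 CPM with overlapping intervals. Among the macrophage markers Adgre1 and Cd68 were higher, Clec4f was lower (54.0 and 49.2 CPM) and Spic overlapped. The summed lists of lipid-associated macrophages and of fibrosis had log2 ratios of 2.02 and 1.93, larger than that of class II. The summed B cell, T cell and Kupffer lists were lower in HFD liver, with -1.67, -0.50 and -0.07. The part of these cell types in the higher class II level was not tested.

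Cd74, the invariant chain gene (chr18:60803848-60812652, plus strand, GRCm38), had the highest count of the 7. Its level was 166 CPM (161 to 171) in NCD liver and 328 CPM (324 to 332) in HFD liver, with a log2 ratio of 0.98 (0.94 to 1.03). The chains of the classical molecules lie close together on chromosome 17. H2-Ab1 (chr17:34257689-34269419, plus strand) was at 93.9 CPM (90.4 to 97.5) and 172 CPM (169 to 175), which gave 0.87 (0.81 to 0.93) as the log2 ratio. H2-Aa (chr17:34282744-34287823, minus strand) was at 109 CPM (106 to 113) and 180 CPM (177 to 184), with 0.72 (0.67 to 0.78). H2-Eb1 (chr17:34305867-34316674, plus strand) was at 70.9 CPM (67.9 to 74.0) and 139 CPM (136 to 142), with 0.97 (0.90 to 1.04). H2-Eb1, the chain without a partner in this strain, thus had a larger log2 ratio than H2-Aa, and their intervals did not overlap.

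The editing and control genes were measured at lower counts. H2-DMa (chr17:34119541-34139101, plus strand) was at 11.9 CPM (10.7 to 13.2) in NCD liver and 17.8 CPM (16.9 to 18.8) in HFD liver, a log2 ratio of 0.59 (0.41 to 0.76). H2-DMb1 (chr17:34153072-34160230, plus strand) was at 10.2 CPM (9.07 to 11.4) and 16.0 CPM (15.1 to 17.0), which gave 0.65 (0.47 to 0.84). Its neighbour H2-DMb2 is a near copy, and 27.2% of the 50-base windows in H2-DMb1 transcripts also occur letter for letter in H2-DMb2 transcripts, so the split of reads between these genes is uncertain. Ciita (chr16:10480059-10528418, plus strand) had 44 UMIs in the whole NCD section and 169 in HFD liver, which is 1.52 CPM (1.10 to 2.03) and 2.34 CPM (2.003 to 2.72). Its log2 ratio of 0.63 had an interval from 0.14 to 1.14 that held the ratios of the other 6 genes. Levels are UMIs at transcript ends and were not divided by gene length, so the order of the genes by CPM is an order of captured molecules.

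**Figure D1:**
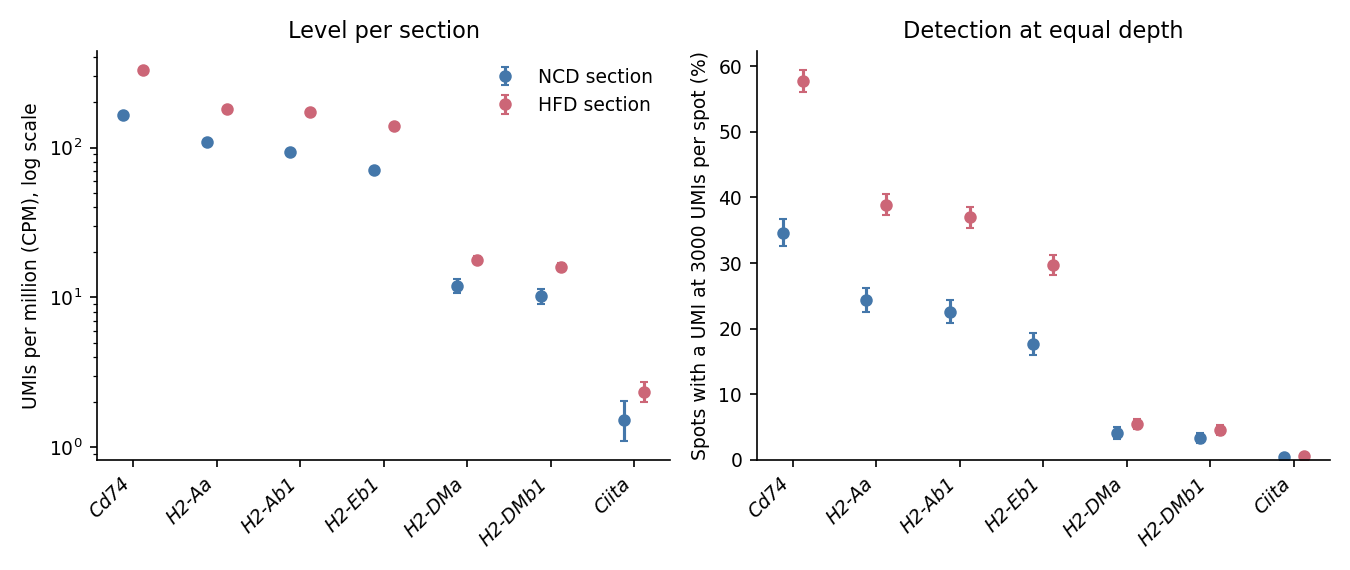
Level of each gene in UMIs per 1000000 on a log scale (left) and percent of spots with at least 1 UMI after every spot was drawn down to 3000 UMIs (right), in NCD liver and HFD liver; bars are exact 95% intervals for counting error. The HFD point lies above the NCD point for all 7 genes in both plots, from Cd74 at 166 and 328 CPM to Ciita at 1.52 and 2.34 CPM.

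At equal depth the same order of sections was seen for the share of spots that held a transcript. After spots were drawn down to 3000 UMIs, which kept 2107 NCD spots and 3538 HFD spots, 34.6% (32.6 to 36.7) of NCD spots and 57.8% (56.1 to 59.4) of HFD spots had a Cd74 UMI. The shares were 24.3% and 38.9% for H2-Aa, 22.5% and 37.0% for H2-Ab1, and 17.6% and 29.6% for H2-Eb1. For H2-DMa they were 4.03% (3.23 to 4.96) and 5.43% (4.70 to 6.23), and for H2-DMb1 3.27% (2.56 to 4.13) and 4.49% (3.84 to 5.23), and these intervals overlapped between the sections. Ciita was found in 0.38% of NCD spots and 0.565% of HFD spots at this depth, and a difference was not detectable. Any of the 7 transcripts was present in 63.6% of NCD spots and 86.1% of HFD spots.

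The depth of the spots differed between the sections, so the level was also read by depth. In NCD liver, the 5 groups of spots from the shallowest to the deepest had 617, 563, 610, 513 and 408 CPM of the 7 genes. The HFD groups had between 835 and 903 CPM, and each of them lay above each NCD group. Among spots with 10000 to 20000 UMIs, 625 in NCD liver and 1414 in HFD liver, the sum was 514 and 880 CPM, a log2 ratio of 0.78 (0.73 to 0.82). The ratio was 0.60 (0.53 to 0.67) among spots of 3000 to 10000 UMIs and 1.21 (1.16 to 1.25) among those of 20000 to 40000. The section difference of the sum was therefore present at each of the matched depths and differed in size between them. Among spots of 3000 to 10000 UMIs the intervals of H2-DMa (-0.02 to 0.88), H2-DMb1 (-0.38 to 0.65) and Ciita (-0.07 to 2.09) held 0. That of Ciita also held 0 among spots of 10000 to 20000 UMIs (-0.39 to 1.47). Spots off tissue also held these transcripts, at 428 CPM (413 to 444) on the NCD slide and 530 CPM (499 to 561) on the HFD slide. The level over tissue exceeded that off tissue by a log2 ratio of 0.12 (0.06 to 0.17) on the NCD slide and 0.69 (0.61 to 0.78) on the HFD slide.

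**Figure D2:**
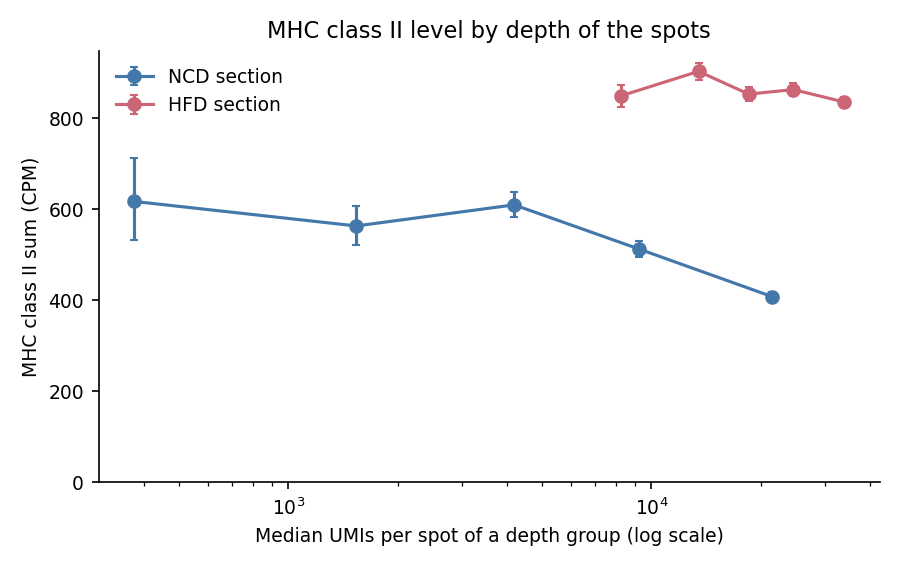
Summed level of the 7 genes in UMIs per 1000000 (vertical axis) against the median UMIs per spot (log scale) of 5 groups of spots of each section, ordered by depth; bars are exact 95% intervals. The NCD level was 617 CPM in the shallowest and 408 CPM in the deepest spots, and every HFD group lay between 835 and 903 CPM.

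The mix of class II transcripts was similar in both sections, with small shifts beyond counting error. Cd74 made up 35.8% (35.0 to 36.6) of the UMIs of the 7 genes in NCD liver and 38.4% (38.0 to 38.7) in HFD liver. H2-Aa went the other way, with 23.6% (22.9 to 24.3) and 21.1% (20.8 to 21.4). H2-Ab1 held 20.2% and 20.1%, with overlapping intervals, and H2-Eb1 held 15.3% (14.7 to 15.9) and 16.2% (16.0 to 16.5). The H2-DM chains together stayed a small part of the total, with H2-DMa at 2.56% and 2.08% and H2-DMb1 at 2.20% and 1.87%.

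Class II genes are known to share promoter boxes read by the RFX, CREB and NF-Y factors with which Ciita works, and the letters of these boxes are shown because all the members were higher in the same section. Of the 7 genes, 4 had a window in the RefSeq table of promoters on GRCm38.p6, which spans 250 bases before to 50 bases after a start site. These were H2-Aa, H2-Eb1, H2-DMa and H2-DMb1, while Cd74, H2-Ab1 and Ciita had no entry. The search was for an X-box-like string, GNAACNNTGANG or GNAACNNNTGANG, and for ATTGG, the NF-Y core, on both strands. Capitals mark the matches, and the sequences run 5′ to 3′ on the strand of the gene, the H2-DMb1 line showing the first string only. The H2-DMb1 stretch lies before the RefSeq start site but inside the gene as placed above by GENCODE M21, which starts it at chr17:34153072.
H2-Aa, chr17:34287857-34287914, minus strand: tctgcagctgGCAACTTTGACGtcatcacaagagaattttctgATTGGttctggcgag
H2-Eb1, chr17:34305766-34305822, plus strand: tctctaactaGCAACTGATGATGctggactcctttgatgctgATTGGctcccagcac
H2-DMb1, chr17:34153092-34153121, plus strand: acctaGTAACTGATGATGctaggctgattc
In H2-Aa, H2-Eb1 and H2-DMb1 the X-box-like string was followed by ATTGG on the same strand, with 21, 19 and 20 bases between them. The X-box-like string occurred in 1.81% of all 32851 promoter windows, ATTGG in 37.4%, and the first followed by the second in 0.247%. The windows of H2-DMa did not hold the X-box-like letters. A match is a string of letters and was not measured as a bound site in these livers.

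Of the other genes of the pathway, most of those for peptide loading were higher in HFD liver, and the remaining class II chains were too sparse for a direction. H2-Oa and H2-Ob, the chains of the H2-DM inhibitor H2-O, and H2-DMb2 and H2-Eb2 made up a list of 4 measured genes, and for 4 of 4 the intervals of the log2 ratio included 0. Their counts were small, from 8 to 36 UMIs in NCD liver, and their sum was 3.20 CPM (2.58 to 3.92) and 3.23 CPM (2.83 to 3.67). The intervals of H2-Oa (-0.40 to 0.88), H2-Ob (-0.73 to 0.86) and H2-Eb2 (-0.68 to 1.84) also held the median of the 7 members, 0.72. That median lay above the intervals of H2-DMb2, -0.35 (-0.95 to 0.27), and of the log2 ratio of the sum, 0.01 (-0.34 to 0.38). In the list of 7 endosomal enzymes, 5 were higher in HFD liver, where 55.2% of all genes were, 1 was lower and 1 overlapped. Ctss, the cathepsin that trims the invariant chain, was at 40.0 and 99.4 CPM, a log2 ratio of 1.31 (1.22 to 1.40). Ifi30, the thiol reductase of antigen processing, was at 29.2 and 50.4 CPM, with a log2 ratio of 0.78 (0.68 to 0.89). Lgmn, Ctsb and Ctsd each had a log2 ratio of 0.90, whereas Ctsl, at 798 and 781 CPM, differed by -0.03 (-0.05 to -0.01) and Ctsh had -0.03 (-0.07 to 0.01). The list's median log2 ratio was 0.90, set beside 0.23 over all genes.

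Factors that bind the promoters differed in both directions, and genes of the interferon gamma route stood near genes in general. Among 7 genes for factors that bind class II promoters, 3 were higher in HFD liver, where 55.2% of all genes were. In this list 1 was lower and 3 overlapped, with a median log2 ratio of 0.07. Nfya, a subunit of NF-Y, was at 3.10 CPM (2.49 to 3.81) and 6.41 CPM (5.84 to 7.02), and Nfyb, its partner subunit, at 26.6 CPM (24.8 to 28.6) and 19.4 CPM (18.4 to 20.4). Rfx5, which binds the X box, was at 3.24 and 2.77 CPM with overlapping intervals. Of 7 genes of the interferon gamma route to Ciita, 4 were higher, beside 55.2% of all genes, 0 were lower and 3 overlapped. Their median log2 ratio was 0.24 beside 0.23 over all genes, and their summed ratio was 0.34 (0.29 to 0.39). Ifng itself had 1 UMI in NCD liver and 4 in HFD liver, so its level could not be compared at this depth. Ifngr2, a receptor chain, had a log2 ratio of 0.77 (0.61 to 0.93), and Irf1 one of -0.06 (-0.20 to 0.09). Cd86, a costimulatory ligand of T cells, was at 3.03 CPM (2.43 to 3.73) and 4.92 CPM (4.42 to 5.46), while Cd80 and Cd40, with 9 and 25 UMIs in NCD liver, overlapped. March8, a ubiquitin ligase that directs class II to degradation, had a log2 ratio of 0.30 (0.20 to 0.40), and March1 overlapped.

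Genes of MHC class I, the molecules that present peptides from within the cell, were more abundant, and their median ratio was close to that of genes in general. Of 10 genes, 7 were higher in HFD liver, where 55.2% of all genes were, 1 was lower and 2 overlapped. The median log2 ratio was 0.25 beside 0.23 over all genes and 0.72 for the 7 members. H2-D1 had a log2 ratio of 0.76 (0.73 to 0.78), within the range of the class II members, and B2m, the common light chain, 0.57 (0.56 to 0.58). H2-K1, at 1695 and 1532 CPM, had -0.15 (-0.16 to -0.13). Nlrc5, the class I relative of Ciita, was at 7.68 and 7.72 CPM with overlapping intervals.

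Class II transcripts were concentrated in a minority of spots in both sections. In NCD liver, the number of UMIs of the 7 genes per spot ranged from 0 to 109 with a median of 1, and in HFD liver from 0 to 237 with a median of 12. The 5% of spots richest in them held 33.9% of their UMIs in NCD liver and 21.04% in HFD liver, where the deepest 5% of spots held 22.7% and 11.3% of all UMIs. After drawing down to 3000 UMIs per spot the shares of class II UMIs in the richest 5% were 31.1% and 20.6%. Ranked by CPM among spots with at least 1000 UMIs they were 20.7% and 17.6%. Sorting spots by sparse counts raises such shares by itself, and the size of this part was not computed. At 3000 UMIs per spot the variance of the sum over spots was 4.30 times its mean in NCD liver and 2.98 times in HFD liver. For single genes the same ratio was 1.93 and 1.80 for Cd74, 1.93 and 1.27 for H2-Aa, 1.60 and 1.49 for H2-Ab1, and 1.79 and 1.41 for H2-Eb1. Over all genes with at least 200 UMIs at that depth, 2819 in NCD liver and 4526 in HFD liver, the median ratio was 1.03 and 1.02. The 95th percentile over these genes was 1.21 and 1.11, so both values were also higher in NCD liver, though over different sets of genes. Against all genes with enough counts, Cd74 lay at percentiles 98.5 and 99.1, H2-Ab1 at 98.0 and 98.7, H2-Eb1 at 98.3 and 98.6, and H2-Aa at 98.4 and 97.7. The sets of genes differed between the sections and were not matched by level, so these percentiles cannot be compared between NCD and HFD liver.

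**Figure D3:**
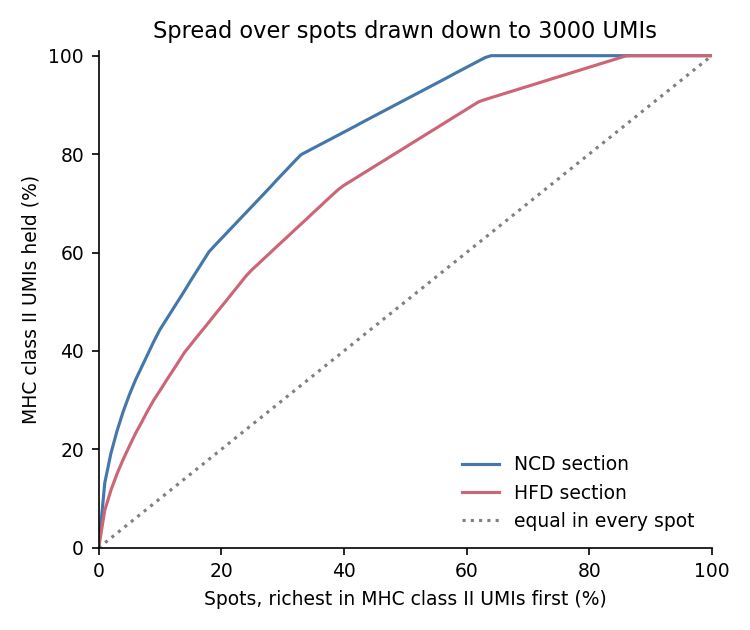
Percent of all class II UMIs (vertical axis) held by the spots ranked from the richest down (horizontal axis, percent of spots), for each section, with a dotted line for equal counts in every spot. Every spot was drawn down to 3000 UMIs, at which depth the 5% richest spots held 31.1% in NCD liver and 20.6% in HFD liver, and the NCD curve lies above the HFD curve until both reach the top.

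The members were found in the same spots as each other. At 3000 UMIs per spot, the odds of finding a member were raised in spots with another member, with an interval above 1, for 15 of 21 pairs in NCD liver and 11 of 21 in HFD liver, of which 9 were shared. Among all pairs of genes found in as many spots as the members, over their whole range, 1.48% of pairs in NCD liver and 1.79% in HFD liver met this. For the 4 most abundant members it was 6 of 6 pairs in each section, against 2.51% and 3.29% of pairs of genes found in as many spots as these. No pair had an interval below 1. Cd74 and H2-Aa occurred together in 244 of 2107 NCD spots, where 177 would follow from their separate shares, an odds ratio of 2.08 (1.69 to 2.57). In HFD liver they occurred together in 865 of 3538 spots against 795, an odds ratio of 1.41 (1.23 to 1.62). H2-DMa and H2-DMb1, the chains of one molecule, occurred together in 8 NCD spots against 2.78, with an odds ratio of 3.34 (1.33 to 7.33), and in 9 HFD spots against 8.63, with 1.05 (0.46 to 2.09). As a description over 2852 NCD and 3590 HFD spots with at least 1000 UMIs, the depth-adjusted count of Cd74 correlated with the sum of the other members with Pearson's r of 0.74 and 0.83. The value was 0.65 to 0.75 in NCD liver and 0.74 to 0.78 in HFD liver for H2-Aa, H2-Ab1 and H2-Eb1, and 0.15 and 0.19 for the sparse Ciita. These spots share a library, and their depth was removed only through expected counts.

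Macrophage transcripts marked spots with slightly more class II. In NCD liver, the 1237 spots with a UMI of Adgre1, Cd68, Spic or Clec4f had 482 CPM of the 7 genes and the other 2455 spots had 436 CPM, a log2 ratio of 0.14 (0.09 to 0.19). Marker spots were deeper, with a median of 11584 against 2157 UMIs, and within groups of equal depth the ratio was 0.38. In HFD liver, 2614 spots with and 980 without a macrophage UMI had 890 and 722 CPM, a log2 ratio of 0.30 (0.27 to 0.33), or 0.34 within depth groups. The HFD ratio was thus the larger over all spots and the NCD ratio the larger at equal depth, also after drawing down to 3000 UMIs, with 0.43 and 0.22. Of the 6 members with at least 200 UMIs in each section, Ciita being too sparse, 0 of 6 reached 1.5-fold in NCD liver, where 0.114% of 7039 genes did, and 0 of 6 in HFD liver, where 1.01% of 10054 genes did. The single markers differed. In HFD liver Cd68, a lysosomal glycoprotein of macrophages, gave 0.44 (0.42 to 0.47) and Adgre1, the F4/80 antigen, 0.30 (0.28 to 0.33), whereas Clec4f, a lectin of resident Kupffer cells, gave 0.04 (0.01 to 0.06). In NCD liver Adgre1 gave 0.31 (0.24 to 0.37), Cd68 0.27 (0.20 to 0.34) and Clec4f 0.03 (-0.02 to 0.08).

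Spots with markers of Kupffer cells, Clec4f, Vsig4, Timd4, Marco and Cd5l, did not hold more class II as a list over all spots. In NCD liver, where marker spots were deeper (median of 9587 against 1405 UMIs), they held more at equal depth. NCD spots with a Kupffer UMI had 461 CPM of the 7 genes against 476 CPM in the other spots, a log2 ratio of -0.05 (-0.11 to 0.02), which was 0.25 within depth groups. HFD spots had 844 and 932 CPM, a log2 ratio of -0.14 (-0.18 to -0.11), and -0.14 within depth groups. At 3000 UMIs per spot, a class II UMI was present in 69.2% of NCD spots with a Kupffer UMI and 59.8% of the others. The odds ratio was 1.51 (1.25 to 1.82) in NCD liver and 1.18 (0.96 to 1.45) in HFD liver. The single markers were not alike. In HFD liver they lay between -0.02 for Cd5l and 0.12 (0.04 to 0.20) for Timd4, with Vsig4 at 0.09 (0.06 to 0.11), each above the value of the list. In NCD liver Marco, a scavenger receptor, gave 0.35 (0.29 to 0.41) and Cd5l 0.08 (0.03 to 0.13), whereas the intervals of Vsig4, Timd4 and Clec4f held 0. No member reached 1.5-fold in the Kupffer split in either section, against 0.398% of genes in NCD liver and 1.59% in HFD liver. In HFD spots with Kupffer transcripts, H2-Eb1 had the lowest ratio of the 6, at -0.30 (-0.38 to -0.22). The list of lipid-associated macrophages, Trem2, Gpnmb, Cd9, Spp1 and Mmp12, gave 0.18 (0.13 to 0.23) in NCD liver and 0.36 (0.32 to 0.41) in HFD liver. Its transcripts were themselves at 69.4 and 281 CPM in the sections, and 87.2% of HFD spots held at least 1.

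Dendritic cell transcripts were rare, and with these marker lists they marked spots with more class II than macrophage transcripts did. The order depended on the markers in HFD liver. With Flt3, Zbtb46, Cd209a, Clec10a, Ccr7 and Batf3 against Adgre1, Cd68, Csf1r, Mpeg1 and Lyz2, the dendritic and macrophage log2 ratios were 0.71 and 0.49 in NCD liver but 0.56 and 0.70 in HFD liver. In NCD liver 52 spots had a UMI of Itgax, Xcr1 or Clec9a, and these spots had 1131 CPM (1058 to 1207) of the 7 genes against 445 CPM (437 to 453) in the others. The log2 ratio was 1.35 (1.25 to 1.44), and 1.43 within depth groups. In HFD liver 442 spots had 1199 CPM (1179 to 1219) against 792 CPM (785 to 799), or 0.60 (0.57 to 0.63) on the log2 scale. The ratio exceeded 1.5-fold for 5 of 6 members in NCD liver, where 7.07% of all genes did, and for 3 of 6 in HFD liver, where 1.98% did. In NCD liver H2-Eb1 had the largest log2 ratio, 1.57 (1.32 to 1.80), and H2-DMb1 with 10 UMIs in these spots the smallest, 0.31 (-0.77 to 1.21). In HFD liver H2-DMb1 had the largest, 0.79 (0.59 to 0.98), and H2-DMa the smallest, 0.48 (0.28 to 0.68). The NCD value rested on few spots, and it was 0.55 without the 1% of spots richest in class II and 0.88 without the spots that held B cell or plasma cell transcripts.

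Spots were also sorted by both lists at once. In NCD liver, spots with neither list had 414 CPM (402 to 426) of the 7 genes, spots with macrophage transcripts only had 465 CPM (455 to 476), and 33 spots with both had 964 CPM (886 to 1048). The 19 NCD spots with dendritic cell transcripts only had 1568 CPM (1407 to 1742). In HFD liver the 4 values were 683 CPM (669 to 697) with neither, 821 CPM (813 to 830) with macrophage only, 1006 CPM (960 to 1054) in the 81 spots with dendritic only and 1234 CPM (1212 to 1257) in the 361 spots with both. The rank of the dendritic-only spots and of those with both lists was thus opposite in the sections. The NCD order rested on 19 and 33 spots and was not recomputed without the spots richest in class II. At 3000 UMIs per spot, a class II UMI was present in 71.2% (66.5 to 75.6) of NCD spots with a macrophage UMI and 61.9% (59.5 to 64.2) of the others, an odds ratio of 1.52 (1.19 to 1.95). The HFD odds ratio was 1.45 (1.14 to 1.87). With dendritic cell markers it was 3.45 (0.76 to 31.8) over 14 marker spots in NCD liver and 1.11 (0.52 to 2.72) over 63 in HFD liver, so no difference in detection was shown at this depth.

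Among single markers, Cd209a and Ccr7 stood at the top in both sections, with Xcr1 level with Ccr7 in HFD liver. Spots with Cd209a, a lectin of type 2 dendritic cells, had 1751 CPM of the 7 genes in 11 NCD spots and 2189 CPM in 69 HFD spots, log2 ratios of 1.94 (1.75 to 2.11) and 1.41 (1.36 to 1.46). Spots with Ccr7, the receptor that brings mature dendritic cells and naive T cells to lymphoid tissue, gave 2.12 (1.99 to 2.24) over 21 NCD spots and 1.08 (1.03 to 1.12) over 90 HFD spots. Xcr1, the chemokine receptor of cross-presenting dendritic cells, gave 1.42 (1.22 to 1.62) over 11 NCD spots and 1.07 (0.98 to 1.16) over 22 HFD spots. The other markers of type 2 and mature dendritic cells were lower, with 0.88 and 0.71 for Clec10a, 1.21 and 1.01 for Flt3, and 0.81 and 0.36 for Fscn1. In NCD liver these lay below Gpnmb of lipid-associated macrophages at 1.42 and Cd3g of T cells at 1.33. Itgax, which some macrophages also carry, gave 1.25 and 0.57. Of 29 single markers of macrophages, dendritic cells, B cells and T cells, 18 gave an interval above 0 in both sections and 0 gave one below 0 in both. The share of genes in general that would do so was not computed.

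Markers of other cell types in the liver were read in the same way. Over all spots, 11 of 16 marker lists gave more class II in marker spots of both sections and 2 gave less in both. These 2 were the endothelial list, with -0.15 and -0.14, and the sinusoidal endothelial list (Stab2 and Clec4g), with -0.39 and -0.19. Within depth groups the NCD values of the Kupffer, endothelial, neutrophil and epithelial lists turned from negative to 0.25, 0.05, 0.05 and 0.20. The NCD sinusoidal value remained negative at -0.24. How often lists of other genes would give such counts was not computed. T cell spots gave 1.03 (0.97 to 1.10) in NCD liver, with 6 of 6 members past 1.5-fold against 3.10% of genes. In HFD liver they gave 0.41 (0.38 to 0.44), with 0 of 6 members against 1.78% of genes. Monocyte spots gave 1.06 and 0.44, B cell spots 0.53 and 0.24, NK cell spots 0.74 and 0.50, and spots with the fibrosis markers Acta2, Col1a1 or Col1a2 gave 0.74 and 0.39. The value was lower in HFD liver than in NCD liver for each of the dendritic, monocyte, B cell, T cell and NK cell lists. The limit of 1 marker UMI is not alike in the sections, as HFD spots were deeper. Dendritic markers were found in 1.41% of NCD and 12.3% of HFD spots, and T cell markers in 4.96% and 9.71%. Depth groups within a section do not remove this difference. The log2 ratio was higher in HFD liver for the lipid-associated list over all spots, but within depth groups that list had 0.38 in NCD liver and 0.41 in HFD liver. Its single markers mostly went the other way, with 0.76 and 0.47 for Trem2, 1.42 and 0.43 for Gpnmb, and 0.57 and 0.36 for Mmp12. Spp1 had 0.35 and 0.30 with overlapping intervals, and only Cd9 was higher in HFD liver, with -0.11 and 0.24. For the macrophage list the order of the sections turned within depth groups. These differences between sections were not tested.

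**Figure D4:**
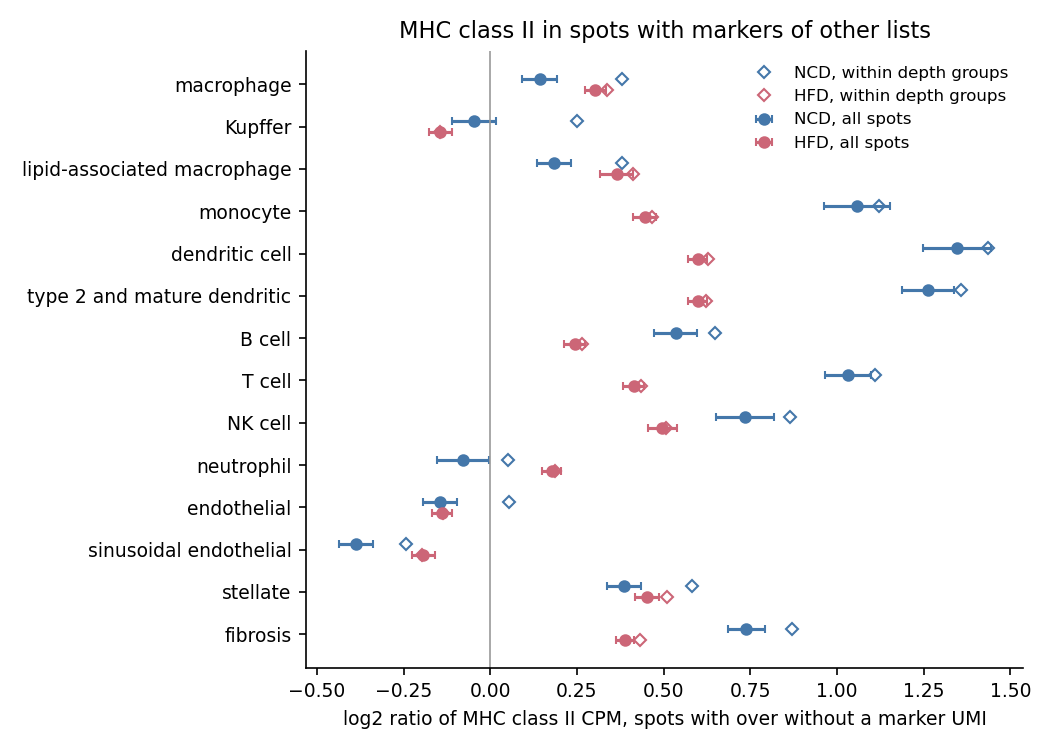
Log2 ratio of the summed class II CPM in spots with over spots without a UMI of each marker list, for the NCD and HFD sections; circles are all spots with exact 95% intervals for counting error and open diamonds are the values within groups of equal depth. The dendritic list lies at 1.35 and 0.60, the macrophage list at 0.14 and 0.30, and the sinusoidal endothelial list below 0 in both sections.

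To see what else the class II spots held, spots with at least 1000 UMIs were ranked by Cd74 alone, and the top 5% were set against the rest. These were 143 NCD spots, the last inside at 718 CPM of Cd74 and the first outside at 717 CPM, and 180 HFD spots, with limits of 782.3 and 781.9 CPM. The ranking favours shallow spots in NCD liver, where the top spots had a median of 3250 UMIs against 6925. The other members were higher there, by log2 ratios from 2.20 for H2-DMb1 to 3.02 for H2-Eb1 in NCD liver and from 1.52 for H2-DMb1 to 2.10 for H2-Eb1 in HFD liver. Ciita had 6 and 24 UMIs in these spots, with 7.96 and 7.30 CPM against 1.33 and 2.11 CPM in the rest.

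Fibrosis and dendritic transcripts were the lists that stood highest beside Cd74 in HFD liver. The fibrosis list was at 456 CPM in Cd74-rich HFD spots and 77.6 CPM in the rest, a log2 ratio of 2.55 (2.47 to 2.64), and in NCD liver at 157 and 21.5 CPM, a ratio of 2.87 (2.57 to 3.15). The type 2 and mature dendritic list (Cd209a, Clec10a, Flt3, Ccr7 and Fscn1) had 2.42 (2.14 to 2.70) in HFD liver and 3.85 (3.24 to 4.43) in NCD liver. The T cell list had 1.76 and 3.22, the lipid-associated macrophage list 1.52 and 2.27, the macrophage list 0.60 and 0.96, and the Kupffer list 0.50 and 0.82. B cell transcripts, mostly Ighm, had 0.44 (-0.05 to 0.90) in HFD liver. Their NCD ratio of 5.14 rested on 1 spot that held 373 of 409 UMIs, and without that spot it was 1.65. Plasma cell transcripts in NCD liver had 5.37, and 3.49 without the 1 spot that held 163 of 223 UMIs. Hepatocyte transcripts were lower in Cd74-rich spots, at -0.32 in NCD liver and -0.19 in HFD liver.

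**Figure D5:**
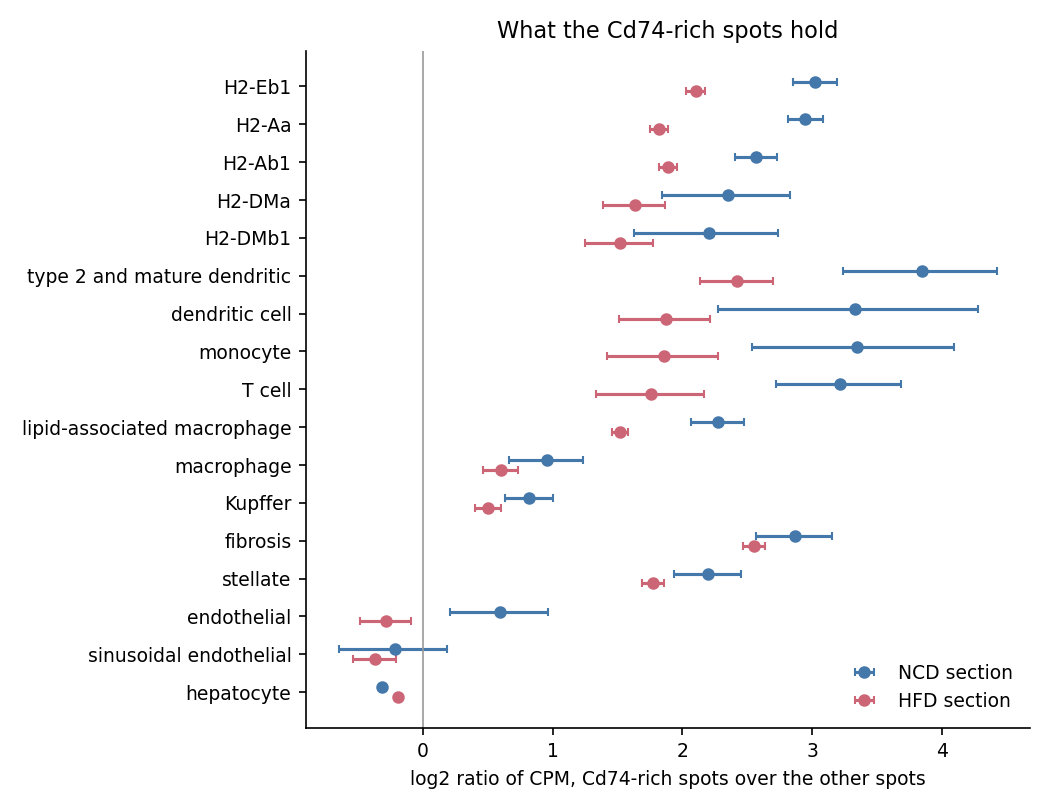
Log2 ratio of CPM in the 5% of spots richest in Cd74 over the other spots with at least 1000 UMIs, for other members and for summed marker lists, in the NCD and HFD sections; bars are exact 95% intervals for counting error. The fibrosis list lies at 2.87 and 2.55 and the Kupffer list at 0.82 and 0.50, and hepatocyte transcripts lie below 0.

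Genes outside the members were ranked by the likeness of their pattern over spots, as the lower of their 2 section values of Pearson's r. This covered 2852 NCD and 3590 HFD spots and 7017 genes with at least 200 UMIs in each section. Every listed marker of dendritic cells, monocytes, T cells and NK cells was below this limit and not ranked, as were Trem2, Gpnmb and Mmp12. The median r over the ranked genes was 0.01 in each section, and the 10 most alike are given. Tmsb4x, which encodes the actin-binding thymosin β4, was the most alike, with r of 0.71 in NCD liver and 0.73 in HFD liver. Cst3, the secreted cathepsin inhibitor cystatin C, followed with 0.60 and 0.67, and then Tmsb10 with 0.60 and 0.58, Crip1 with 0.55 and 0.61, and the leukocyte surface gene Cd52 with 0.53 and 0.56. The rest were Gsn (0.42 and 0.50), Ccl19 (0.42 and 0.46), Actb (0.41 and 0.50), S100a6 (0.40 and 0.54) and Mgp (0.39 and 0.53). Ccl19 encodes a ligand of Ccr7, the receptor whose spots were rich in class II, and Gsn and Mgp encode gelsolin and matrix Gla protein. Macrophage genes were spread over a range of r. Lyz2, the lysozyme of myeloid cells, was at rank 12 with 0.39 and 0.52 and C1qb, a complement chain of macrophages, at rank 17 with 0.34 and 0.41, and both are named after their values were seen. Cd68 had 0.10 and 0.25, Adgre1 0.09 and 0.15, and Clec4f 0.11 and 0.06. These spots share 1 library in each section, so the values describe these sections.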

How the data were processed

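The members and gene lists were chosen with earlier results of these data known. The count tables deposited by the authors hold unnormalized UMIs for each gene in each spot, from Space Ranger 1.3.1 per the file headers, with mm10 as the build per the submitters' processing notes. The annotation release is not given in the sources used here. Tables for the spots over tissue and for all 4992 spots were used; they differed by 0 UMIs over tissue. The sections share 3173 spot barcodes, which are positions of a common array design.

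No normalization was applied beyond UMIs per 1000000. UMIs were pooled over spots, with exact Poisson intervals for sums, Clopper-Pearson intervals for shares and conditional binomial intervals for ratios, at the 95% level. Spots were drawn down at random to 300 or 3000 UMIs (seed 1). Genes with at least 200 UMIs were tested for folds. The genes named are the members, those of the pathway and marker lists, and the 10 with the highest lower-section Pearson's r between depth-adjusted residuals and those of the summed members. The marker lists for the main cell types are those of the study. Values within depth groups weight 5 groups of spots by depth.

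All 7 members matched GENCODE M21 on GRCm38, as did 32158 of 32285 identifiers. The calculations were tested on simulated data. The tools were numpy 2.4.6, scipy 1.17.1, matplotlib 3.10.9 and pandas 2.3.3 under Python 3.11.15. The marker alternatives, Clec4f and Spic only and Xcr1 and Clec9a only, and the limit to spots of 10000 to 20000 UMIs were chosen after seeing the data. Spot positions and images were not used here.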

Additional observations from a re-analysis of the deposited data

Results flagged for a closer look

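Neutrophil markers (S100a8, S100a9 and Csf3r) split the sections in opposite directions. The log2 ratio of class II CPM in spots with over spots without a neutrophil UMI was -0.0777 in NCD liver and 0.18 in HFD liver, a difference that was not tested, and within depth groups it was 0.05 and 0.19. At 3000 UMIs per spot the HFD odds ratio of a class II UMI was 0.53 (0.34 to 0.84), below 1, against 0.94 (0.54 to 1.67) in NCD liver.

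Spots that were not called over tissue also held class II transcripts, at 427.9 CPM on the NCD slide and 529.6 CPM on the HFD slide. On the NCD slide H2-Ab1 was higher off tissue than over tissue, with 107 against 93.9 CPM and a log2 ratio over tissue to off tissue of -0.19 (-0.31 to -0.07), while Cd74 had 0.32 (0.22 to 0.43).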

How the results depend on the processing

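No paired analysis was possible because each group held 1 section. The section log2 ratio of 0.88 became 0.66 as a mean of CPM per spot, 0.77 and 0.64 at 3000 and 300 UMIs per spot, 0.97 without the richest 1% of spots, 0.72 after subtracting the spots off tissue, 0.93 without B cell and plasma cell spots, 0.82 without Cd74 and 0.78 in spots of 10000 to 20000 UMIs. The subtraction removed the mean UMIs of a spot off tissue for each spot over tissue. It took out most UMIs of NCD liver and a small part of those of HFD liver. All 49 values of single members under the alternatives were positive, from 0.26 for H2-DMb1 to 1.41 for H2-Ab1, both after subtracting the spots off tissue. The 7 of 7 members at 1.5-fold became 6 without mitochondrial and abundant genes in the total (H2-DMa at 0.58) and 6 without B cell and plasma cell spots (Ciita at 0.58). The share of all genes at 1.5-fold was not computed for these settings. The macrophage value, 0.14 in the NCD and 0.30 in HFD liver, was 0.38 and 0.34 within depth groups, 0.43 and 0.22 at 3000 UMIs, 0.49 and 0.70 with Adgre1, Cd68, Csf1r, Mpeg1 and Lyz2 as markers, 0.24 and 0.26 without B cell and plasma cell spots, and 0.0301 and 0.0417 with Clec4f and Spic only. In HFD liver it was also 0.26 without the richest 1% and 0.27 in spots without dendritic markers. The dendritic value, 1.35 and 0.60, was 2.25 and 0.65 at 3000 UMIs, 1.96 and 0.97 with at least 2 marker UMIs, 0.71 and 0.56 with Flt3, Zbtb46, Cd209a, Clec10a, Ccr7 and Batf3, 0.55 and 0.41 without the richest 1%, and 1.92 and 0.56 in spots without macrophage markers. It was 0.88 without B cell and plasma cell spots in NCD liver, and 0.63 within depth groups and 0.81 with Xcr1 and Clec9a only in HFD liver. The share of UMIs in the richest 5% of spots, 33.9% and 21.04%, was 31.1% and 20.6% at 3000 UMIs, 20.7% and 17.6% when ranked by CPM, and 35.0% and 21.6% without Cd74. None of the values above changed sign, but within depth groups the NCD values of 4 other marker lists did, from -0.05 to 0.25 for Kupffer, -0.15 to 0.05 for endothelial, -0.08 to 0.05 for neutrophil and -0.20 to 0.20 for epithelial markers. The cause of the shifts was not tested. Depth limits Ciita, Ifng and the rarer dendritic markers most.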
